A study of Canis lupus familiaris with 60 samples.

Results

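COL1A1, COL1A2 and DCN were followed in dog skin before and after a house dust mite patch test. The genes were chosen as dermal matrix genes, and every probe was taken whose RefSeq transcript identifier, with its version dropped, belonged to one of them. This gave 12 probes of the 60068 probes on the array, and 3 genes of the 1066 that could be named through RefSeq. COL1A1 (NM_001003090) was read by 4 probes, COL1A2 (NM_001003187) by 6 and DCN (NM_001003228) by 2. All 12 probes were well above background on all 59 arrays used.

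COL1A1 and COL1A2 encode the chains of type I collagen, the main fibre of the dermis. DCN encodes decorin, a small proteoglycan that binds collagen fibrils and limits their growth. All of these products are made chiefly by dermal fibroblasts, whereas the epidermis above them is built of keratinocytes. In a whole skin biopsy the amount of their mRNA therefore depends on how much dermis was taken as well as on how active its fibroblasts were, and in bulk RNA fewer fibroblasts and less RNA per fibroblast cannot be told apart.

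Skin was taken from 12 Beagle dogs between 2 and 3 yr of age. The 6 sensitized dogs (4 males and 2 females) had been sensitized to the mite Dermatophagoides farinae through the skin and carried specific IgE, and the 6 nonsensitized dogs (2 males and 4 females) served as controls. Each dog gave 5 punch biopsies of 8 mm from the lateral chest, of which the outer pieces went to RNA. One was from untreated skin at 0 hr, and the others were from saline and allergen patches (50 µl of saline or 75 mg of mite paste) at 6 hr and at 24 hr. Shaving and local anesthesia were shared by all groups, whereas the bandage covered patched skin only and the allergen patch was put back after the 6 hr biopsy. The 60 biopsies made up 10 groups of 6, and 1 biopsy with degraded RNA (sensitized, 24 hr allergen) was left out, so that this group held 5 dogs. The 5 suprabasal keratinocyte markers and the 3 fibroblast markers measured, KRT1 and PDGFRB among them, were well above background on 59 of 59 arrays. So were the muscle gene MYH7 and the adipocyte gene LEP, so detection alone does not set skin apart from other tissue.

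Each biopsy was hybridised to its own array. The median signal of an array ran from 81.7 to 146.12, and 68.85% to 80.15% of its spots were well above background. The arrays lay on 8 slides. Untreated skin was on slides 6 to 8 and 24 hr skin on slides 1 to 3, apart from 1 allergen biopsy on slide 8, so slide and time cannot be told apart when 24 hr skin is compared with untreated skin. Part of the 6 hr skin shared a slide with untreated skin of the same dog group, but no saline site of nonsensitized dogs did.

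Levels are given as scaled log2 signal, on which 1 unit is a 2-fold change, and each gene is represented by its brightest probe. COL1A1 ran from 14.30 to 17.03 over the 59 arrays, COL1A2 from 16.64 to 18.52 and DCN from 16.01 to 17.43. The standard deviation over arrays was 0.63 for COL1A1, 0.42 for COL1A2 and 0.31 for DCN, against a median of 0.267 over all probes tested. Levels of different probes depend on the probe as well as on the mRNA and are not set against each other.

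In untreated skin COL1A1 had its highest and its lowest group mean of the study. In sensitized dogs it stood at 16.41 ± 0.26 (SD, n = 6), with a lowest value of 16.03, a median of 16.44 and a highest value of 16.71. In nonsensitized dogs it stood at 15.47 ± 0.69 (n = 6), with 14.42, 15.60 and 16.25. The sensitized dogs lay close together, the nonsensitized dogs were spread over more than 3-fold, and 2 of the latter, dogs 2802 and 2704, lay within the sensitized range or at its lower edge.

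At 6 hr the COL1A1 means of all patch sites lay between these extremes. In sensitized dogs the saline sites were at 16.27 ± 0.49 (lowest 15.57, median 16.29, highest 16.78) and the allergen sites at 16.06 ± 0.14 (15.87, 16.07, 16.26), each with n = 6. In nonsensitized dogs the saline sites were at 16.07 ± 0.64 (15.13, 16.04, 17.03) and the allergen sites at 15.58 ± 0.96 (14.30, 15.47, 16.99), again with n = 6. The values of the 2 dog groups overlapped at both kinds of site.

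At 24 hr the 4 COL1A1 means lay between 15.67 and 15.88. In sensitized dogs the saline sites were at 15.67 ± 0.56 (14.80, 15.84, 16.17; n = 6). The 5 allergen sites of sensitized dogs were at 15.25, 15.51, 15.65, 16.00 and 16.11, with a mean of 15.70 ± 0.35. In nonsensitized dogs the saline sites were at 15.88 ± 0.92 (14.31, 16.13, 16.87) and the allergen sites at 15.69 ± 0.45 (15.18, 15.72, 16.27), each with n = 6. All 4 groups overlapped.

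COL1A2 had the same extremes. Untreated skin was at 18.05 ± 0.21 in sensitized dogs (17.76, 18.08, 18.30) and at 17.48 ± 0.54 in nonsensitized dogs (16.64, 17.64, 18.08). At 24 hr the sensitized dogs were at 17.55 ± 0.33 under saline (17.11, 17.62, 17.94), and their 5 allergen sites were at 17.27, 17.52, 17.59, 17.62 and 17.72. Every one of these 5 values lay below the lowest untreated value of the same dog group. This held for the brightest probe but not for the dimmer probes A_11_P145878, A_11_P147118 and A_11_P147268, which overlapped untreated skin. The share of all probes that separate in this way was not counted. The nonsensitized dogs were at 17.67 ± 0.50 under saline (16.78, 17.82, 18.16) and at 17.62 ± 0.29 under allergen (17.25, 17.67, 17.94), and overlapped their own untreated skin.

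DCN varied least. Its 10 group means lay between 16.56 ± 0.24 (sensitized, 24 hr allergen, n = 5) and 16.90 ± 0.11 (sensitized, 6 hr saline, n = 6). Untreated skin was at 16.86 ± 0.18 in sensitized dogs (16.58, 16.89, 17.05) and at 16.78 ± 0.47 in nonsensitized dogs (16.10, 16.69, 17.43). The 5 allergen sites of sensitized dogs at 24 hr were at 16.28, 16.42, 16.54, 16.63 and 16.92, and overlapped untreated skin.

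When the 10 groups were ordered by their means, neighbours in the order differed by less than the smaller of their standard deviations for COL1A2 and DCN at every step. For COL1A1 the single exception was the step from 6 hr allergen sites of sensitized dogs to 24 hr saline sites of nonsensitized dogs, where the gap was 0.18 and the smaller standard deviation 0.14.

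**Figure D1:**
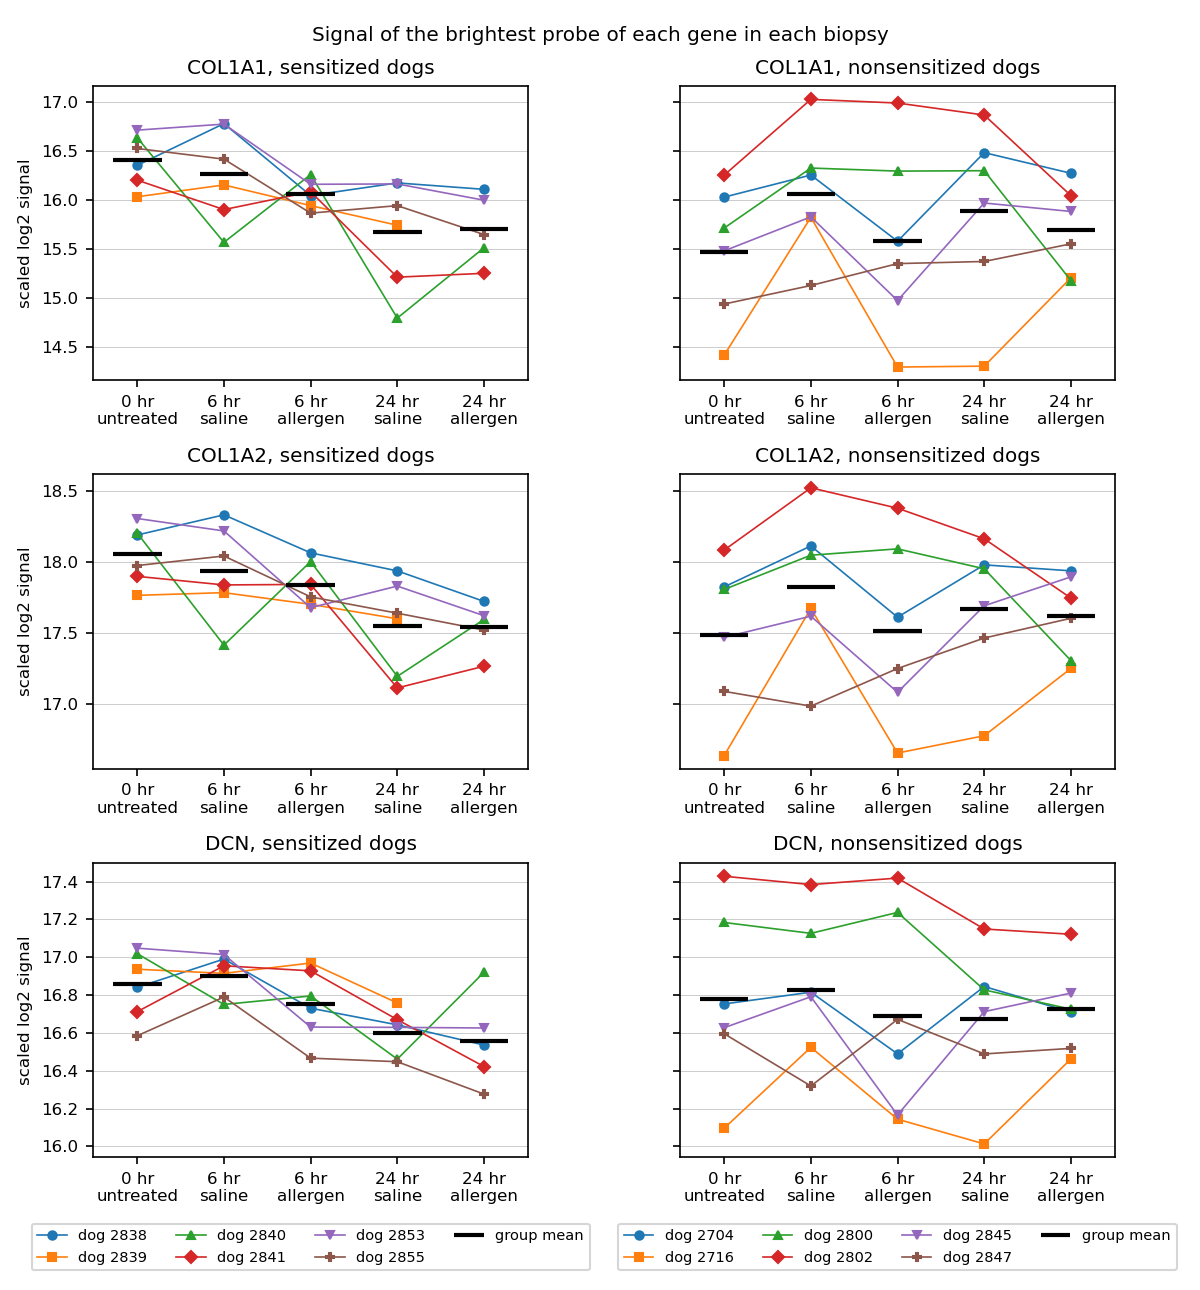
Scaled log2 signal of the brightest probe of COL1A1, COL1A2 and DCN (vertical axes) at the 5 sites (horizontal axes), in sensitized and nonsensitized dogs. Thin lines join the biopsies of 1 dog and the thick bar is the group mean (n = 6, or 5 for sensitized 24 hr allergen). Among nonsensitized dogs, dog 2802 is at or near the top of every panel and dog 2716 is mostly at the bottom, and COL1A1 of the sensitized dogs runs from a mean of 16.41 at 0 hr to 15.67 and 15.70 at 24 hr.

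The identity of the dog accounted for most of the spread within groups. Dogs took 68.8% of the within-group variation of COL1A1, 66.9% of that of COL1A2 and 75.8% of that of DCN. The share ran from 63.3% to 75.8% over the 12 probes, and the median over all probes tested was 40.75%. The same dogs were at the extremes for all 3 genes. Nonsensitized dog 2716 had the lowest mean over its 5 biopsies (COL1A1 14.81, COL1A2 17.00, DCN 16.25), and nonsensitized dog 2802 had the highest (16.64, 18.18 and 17.30). Mean COL1A1 of the sensitized dogs lay in the narrower range of 15.73 to 16.36.

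COL1A1 and COL1A2 moved almost as one across biopsies. Their correlation over the 59 arrays was 0.966, and 0.960 after group means were removed. DCN followed them less closely, at 0.76 with COL1A1 and 0.79 with COL1A2, or 0.79 and 0.81 with group means removed. These are descriptions: the arrays share dogs and slides and are not independent samples.

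**Figure D2:**
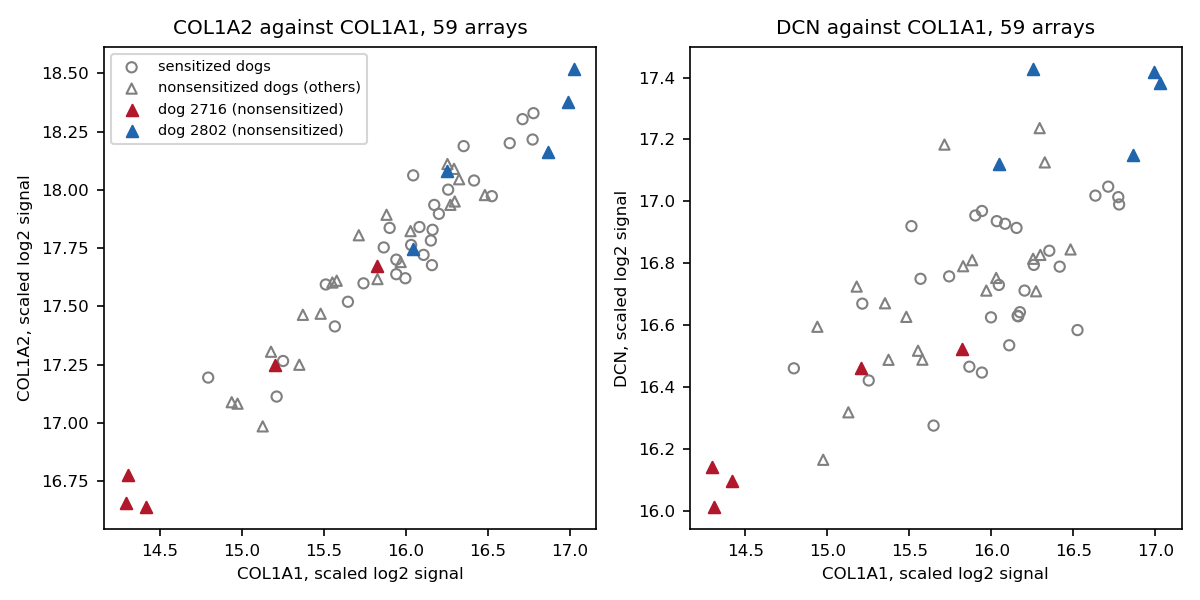
Scaled log2 signal of COL1A2 (left) and DCN (right) against COL1A1 on the 59 arrays, each point being 1 biopsy; circles are sensitized and triangles nonsensitized dogs, with dogs 2716 (red) and 2802 (blue) filled. COL1A2 lies along a narrow line (r = 0.966), and DCN forms a broader band (r = 0.76) that covers a smaller range, with the biopsies of dog 2716 at its lower left and those of dog 2802 along its top.

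Of the 895 other named genes, SERPINF1 was most like the mean of the 3 genes over the 59 arrays, with r = 0.91. It encodes a secreted protein that inhibits angiogenesis and binds collagen. COL2A1, the chain of cartilage collagen (r = 0.85), FXYD1, a regulator of the sodium pump (0.70), COL6A3, a chain of the microfibrillar type VI collagen (0.70), and SMOC2, a matricellular protein (0.69), followed. All 5 were well above background on 59 of 59 arrays, although COL2A1 was dim, with a mean of 6.55.

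The 3 genes least like them were SLC10A2 (r = -0.70), a bile acid transporter, SAG (-0.67), the arrestin of the retina, and KLK6 (-0.63), a serine protease of the epidermis. SLC10A2 and SAG were well above background on only 40 and 37 of 59 arrays. Among the genes of the fixed lists, SERPINH1, the collagen chaperone of the endoplasmic reticulum, ranked 12th of 895 with r = 0.62, and CTSK, a protease that cleaves collagen, ranked 15th with 0.61. BGN, which encodes the related proteoglycan biglycan, did not follow (r = -0.15, or -0.45 with group means removed). The suprabasal keratinocyte genes ran from -0.09 for SPINK5 to 0.24 for KRT1, and with group means removed from -0.40 for OCLN to 0.28 for KRT1.

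The first comparison asked whether untreated skin differed between the dog groups before any patch. COL1A1 was higher in sensitized dogs by 0.94 on the log2 scale (SE 0.34, 95% interval 0.26 to 1.62), or 1.92-fold. COL1A2 was higher by 0.57 (SE 0.23, 0.11 to 1.03), or 1.49-fold. DCN differed by 0.08, with an interval of -0.29 to 0.44. The other probes gave 0.92 to 1.06 for COL1A1, 0.54 to 0.85 for COL1A2 and 0.15 for DCN.

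None of these differences passed the test. A difference was called when limma's p-value, adjusted by the Benjamini-Hochberg procedure over all 45972 probes tested, was below 0.05 and the change at least 1.5-fold. The adjusted p was 1 for all 3 genes, although the unadjusted p was 0.0077 for COL1A1 and 0.016 for COL1A2. In this comparison 0 of the 12 probes and 0.00218% of all probes were called. Within slide 7 (2 sensitized and 5 nonsensitized dogs) COL1A1 differed by 0.70, and within slide 8 (3 and 1) by 1.58. COL1A2 differed by 0.31 and 1.05 on these slides. The dog groups also differed in their numbers of males and females, whose part in the difference was not tested.

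The other matrix genes measured in untreated skin were not called either. COL2A1 and COL6A3 were higher in sensitized dogs by a median of 0.57, BGN by 0.29 and SERPINH1 by 0.42. Of the matrix glycoproteins TNC differed by -0.39 and THBS2 by 0.22. The 3 fibroblast markers had a median of -0.09 and the 5 suprabasal keratinocyte markers one of -0.13. The fibroblast score, the mean of the centred log2 values of PDGFRB, S100A4 and CD34, ran from -0.11 to 0.27 in sensitized and from -0.13 to 0.56 in nonsensitized untreated skin. The score of the 3 matrix genes ran from 0.13 to 0.58 and from -1.06 to 0.48. The dog groups overlapped in both scores, and the part of dermal share in the difference was not tested.

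Allergen was then compared with saline, which asks what the mite adds to the effect of the patch. At 6 hr the allergen sites of sensitized dogs differed from their saline sites by -0.21 for COL1A1, -0.10 for COL1A2 and -0.15 for DCN, with adjusted p of 0.984, 0.990 and 0.963. None of the 12 probes was called, against 0.415% of all probes. The differences of nonsensitized dogs were -0.48, -0.31 and -0.14, with adjusted p of 0.960, 0.960 and 0.977, and again none of the 12 was called, against 0.0348% of all probes. COL1A1 was lower under allergen in 4 of 6 sensitized and in 5 of 6 nonsensitized dogs. Its 95% intervals were wide, -0.88 to 0.47 and -1.16 to 0.20, in the unpaired fit, which does not use the pairing by dog. With the dog as a block neither difference was called.

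The difference between the dog groups in this response at 6 hr was 0.28 for COL1A1, 0.22 for COL1A2 and -0.01 for DCN, and was not called. Here limma called 0 of 45972 probes, with 524 at an unadjusted p below 0.05, and 0 with the dog as a block. Where both sites of a dog were on the same slide, the mean COL1A1 change was -0.21 in 5 sensitized and -0.44 in 2 nonsensitized dogs.

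At 24 hr the dermal genes showed no difference between allergen and saline that could be told from the spread between dogs. COL1A1 of sensitized dogs differed by 0.03 (SE 0.35, 95% interval -0.68 to 0.74), COL1A2 by -0.01 (-0.49 to 0.48) and DCN by -0.05 (-0.43 to 0.34). In 2 of 5 dogs COL1A1 was higher under allergen and in 3 it was lower. None of the 12 probes was called, against 0.276% of all probes.

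In nonsensitized dogs the 24 hr differences were -0.19 for COL1A1, -0.05 for COL1A2 and 0.05 for DCN, with none of the 12 probes called against 0.766% of all probes. COL1A1 ran from -1.12 in dog 2800 to 0.90 in dog 2716. In the 5 nonsensitized dogs with both sites on the same slide the mean change was -0.01 for COL1A1, 0.07 for COL1A2 and 0.08 for DCN. The 2 such sensitized dogs had -0.23, -0.16 and -0.09.

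The interaction, which is the allergen response of sensitized dogs minus that of nonsensitized dogs, was 0.22 for COL1A1 at 24 hr (SE 0.49, 95% interval -0.76 to 1.21). It was 0.04 for COL1A2 (-0.63 to 0.71) and -0.10 for DCN (-0.62 to 0.43), and none of the 12 probes was called, against 0.944% of all probes. The allergen sites of the 2 dog groups differed by 0.01, -0.08 and -0.17 for COL1A1, COL1A2 and DCN, none called, where 7.05% of all probes were called. Their saline sites differed by -0.21, -0.12 and -0.07, none called, where 2.4% of all probes were. The 24 hr arrays on slide 1 were mostly of nonsensitized dogs and those on slide 3 mostly of sensitized dogs. Within slides 1, 2 and 3 COL1A1 of the saline sites differed by 0.96, -1.12 and -1.09 between the dog groups. COL1A1 of the allergen sites differed by -1.02 within slide 2 and by -0.13 within slide 3. Each of these values rests on 1 to 3 dogs per group. The interaction intervals are from the unpaired fit, which does not use the pairing by dog. They do not show that the genes were alike in these groups, since the upper end for COL1A1 in that fit leaves room for a difference of more than 2-fold.

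**Figure D3:**
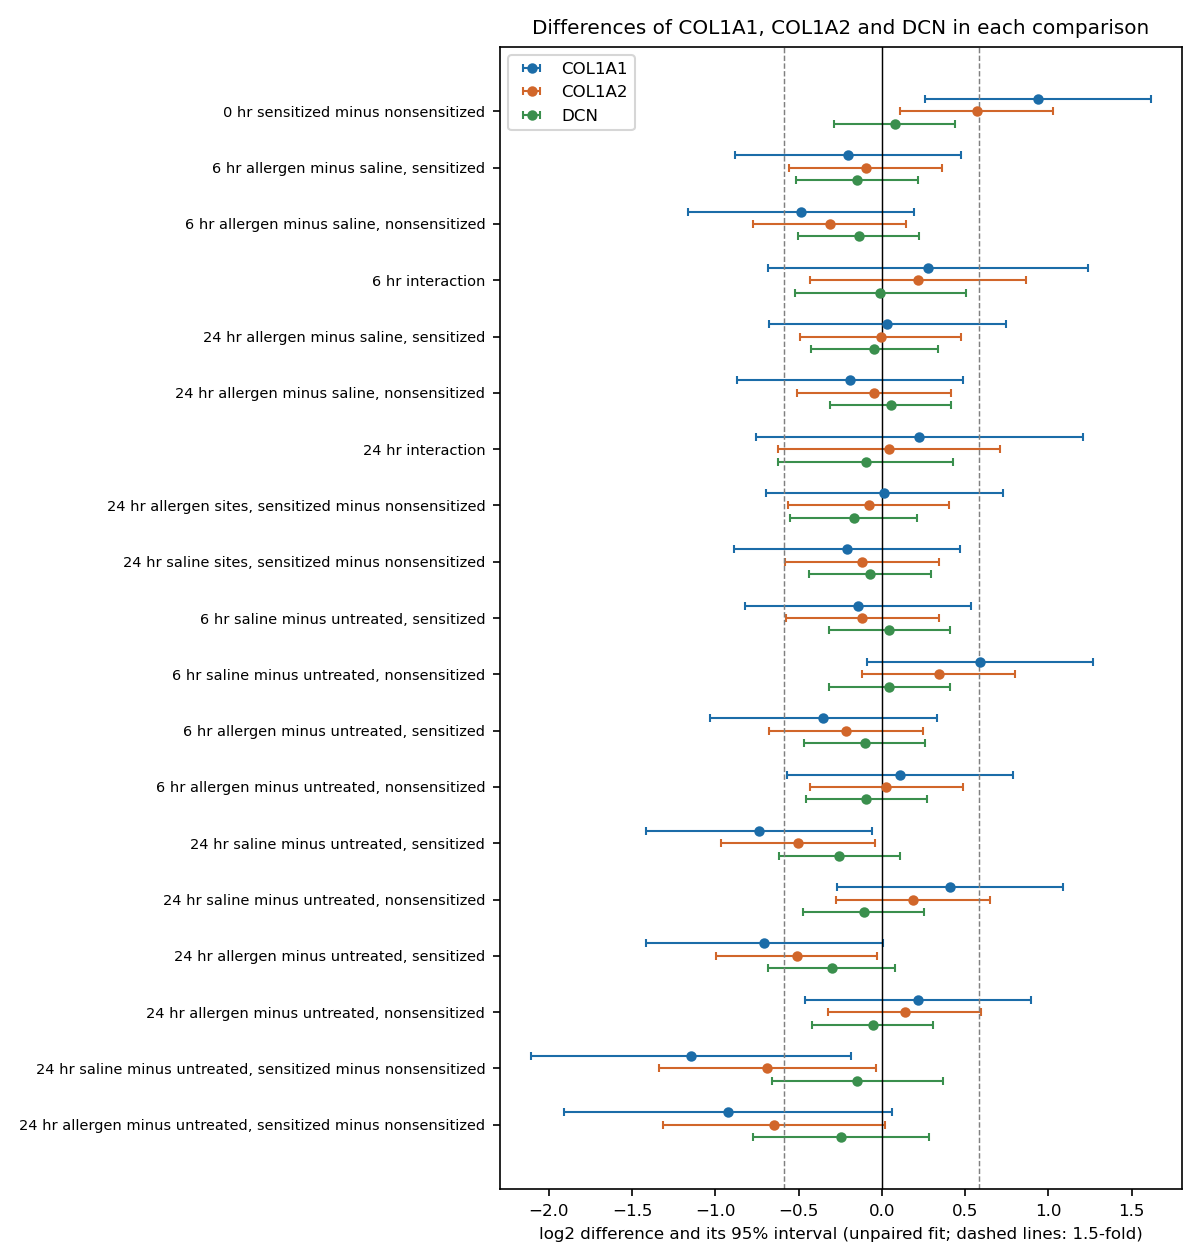
Log2 difference of the brightest probe of COL1A1, COL1A2 and DCN in each of the 19 comparisons (points, with 95% intervals from the unpaired fit); the dashed lines mark 1.5-fold. Every interval for allergen against saline spans 0, those of COL1A1 and COL1A2 at 0 hr lie above 0, and the differences of 24 hr sites from untreated skin lie below 0 in sensitized dogs and, for both collagen genes, above 0 in nonsensitized dogs.

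Patched skin was next compared with untreated skin, a comparison that holds the patch, the bandage and the elapsed time together and, for most biopsies, a change of slide. At 6 hr the saline sites of sensitized dogs differed from untreated skin by -0.14 for COL1A1, -0.12 for COL1A2 and 0.05 for DCN, none called, against 2.63% of all probes. The allergen sites differed by -0.35, -0.22 and -0.10, none called, against 3.8%. The brightest probes of COL1A1 and COL1A2 were lower at the allergen site than in untreated skin in 6 of 6 sensitized dogs, while the dimmer COL1A1 probes were higher in 1 or 2 of 6 and the COL1A2 probe A_11_P147118 in 2 of 6.

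In nonsensitized dogs the brightest COL1A1 probe was higher at the 6 hr saline site than in untreated skin in 6 of 6 dogs, by 0.19 to 1.41, and the other 3 in 4 or 5 of 6. The mean difference was 0.59 (SE 0.34, adjusted p = 0.267), not called by limma without pairing, where 2.2% of all probes were called and none of the 12. With the dog as a block the SE was 0.21 and the adjusted p 0.0403, so that the change passed the test, where 1 of the 12 probes was called, and of all probes 0.496% were called higher and 2.98% in either direction. COL1A2 differed by 0.34 and DCN by 0.05. The 6 hr allergen sites differed by 0.11, 0.03 and -0.09, none called, against 1.57%.

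At 24 hr the brightest probes of COL1A1, COL1A2 and DCN were lower than in untreated skin at both patch sites of every sensitized dog measured, which did not hold for all of the dimmer probes. How many of all probes were lower in every sensitized dog was not counted. COL1A1 differed by -0.74 under saline (SE 0.34, 95% interval -1.42 to -0.06), a 1.67-fold lower level, and by -0.71 under allergen (SE 0.35, -1.42 to 0.01). COL1A2 differed by -0.50 (SE 0.23) and -0.51 (SE 0.24). DCN, the decorin gene, differed by -0.26 (SE 0.18) and -0.30 (SE 0.19), and the saline value turned to 0.15 with slide as a fixed block. By dog, the brightest COL1A1 probe was lower in 6 of 6 dogs under saline, from -1.84 in dog 2840 to -0.18 in dog 2838. It was lower in 5 of 5 under allergen, at -1.12, -0.95, -0.88, -0.71 and -0.24.

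Without pairing limma called neither gene by its brightest probe. The adjusted p under saline was 0.0859 for COL1A1 and 0.0845 for COL1A2, and under allergen 0.106 and 0.0849. Of the 12 probes 1 was called in each comparison, and it was lower. Of all probes 9.35% were called under saline, 5.13% lower and 4.22% higher, and 13.6% under allergen, 6.19% lower and 7.4% higher. The member called was A_11_P0000019905 of COL1A2, which differed by -0.85 (adjusted p = 0.0257) and -0.81 (adjusted p = 0.0380). Leaving out nonsensitized dog 2716 or 2802, which do not enter this difference but add to the shared spread, gave COL1A1 under saline an adjusted p of 0.0393 or 0.0465 in limma with the difference unchanged at -0.74.

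With the dog as a block, which compares each site with the same dog's untreated skin, COL1A1 fell by 0.74 under saline (SE 0.21, adjusted p = 0.00408 in limma) and by 0.73 under allergen (SE 0.22, adjusted p = 0.00608). In that fit 5.61% and 6.52% of all probes were called lower, of 10.3% and 13.9% called in either direction. Of the 12 probes 3 and 2 were called lower. COL1A2 had adjusted p of 0.00523 and 0.00434 but remained under 1.5-fold. In the 1 sensitized dog with the 24 hr allergen site and untreated skin on the same slide, dog 2840, COL1A1 differed by -1.12, COL1A2 by -0.61 and DCN by -0.10.

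Nonsensitized dogs did not show this. At 24 hr COL1A1 differed from untreated skin by 0.41 under saline (SE 0.34) and by 0.22 under allergen, COL1A2 by 0.19 and 0.14, and DCN by -0.11 and -0.06. The DCN values turned positive under 4 alternatives each, to as much as 0.45 and 0.54 with slide as a fixed block. By their brightest probes none of the 3 was called, with or without the block. COL1A2, by its brightest probe, was higher under saline in 6 of 6 dogs, by 0.08 to 0.38, and COL1A1 in 5 of 6. Under allergen both genes were higher in 4 of 6 dogs and lower in dogs 2800 and 2802, whose untreated skin was among the 3 highest of their group.

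The 12 probes did not give 1 answer at 24 hr. In nonsensitized dogs 4 of the 12 were called higher under saline, where 22.4% of all probes were called, 9.49% higher and 12.9% lower. These were the dimmer COL1A1 probes A_11_P0000019813 (0.82, adjusted p = 0.0410) and A_11_P147258 (0.98, adjusted p = 0.0321), and the dimmer COL1A2 probes A_11_P147118 (1.12, adjusted p = 0.0116) and A_11_P147268 (0.95, adjusted p = 0.0271). Under allergen none of the 12 was called in limma's unpaired fit, against 16.7% of all probes (5.36% higher, 11.4% lower). With the block 5 of the 12 were called higher under saline, against 9.78% of all probes called higher and 23.2% in either direction. The same 4 as above were called higher under allergen, against 5.67% and 17.4%. In sensitized dogs the 2 dimmer COL1A2 probes differed by only -0.02 and -0.08 under saline, while the brightest differed by -0.50. By dog, A_11_P147118 was higher in 4 of 6 sensitized dogs under saline and in 4 of 5 under allergen, and A_11_P147268 in 4 of 6 and 3 of 5. Each of the 3 dimmer COL1A1 probes was higher in 1 of 6 sensitized dogs under saline.

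The dimmer probes also had the wider range of signal. Signal of the brightest COL1A2 probe varied 4.40-fold between the lowest and the highest array, and signal of A_11_P147118 varied 15.23-fold. For COL1A1 the brightest probe varied 8.19-fold and A_11_P147258 varied 14.64-fold. No spot was flagged as saturated on the 58 arrays that carried the flag. The 11 spots of the bright COL1A2 probe A_11_P051236 had a median coefficient of variation of 3.83%. The other 11 probes had 1 spot each, so their scatter between spots was not measured.

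**Figure D4:**
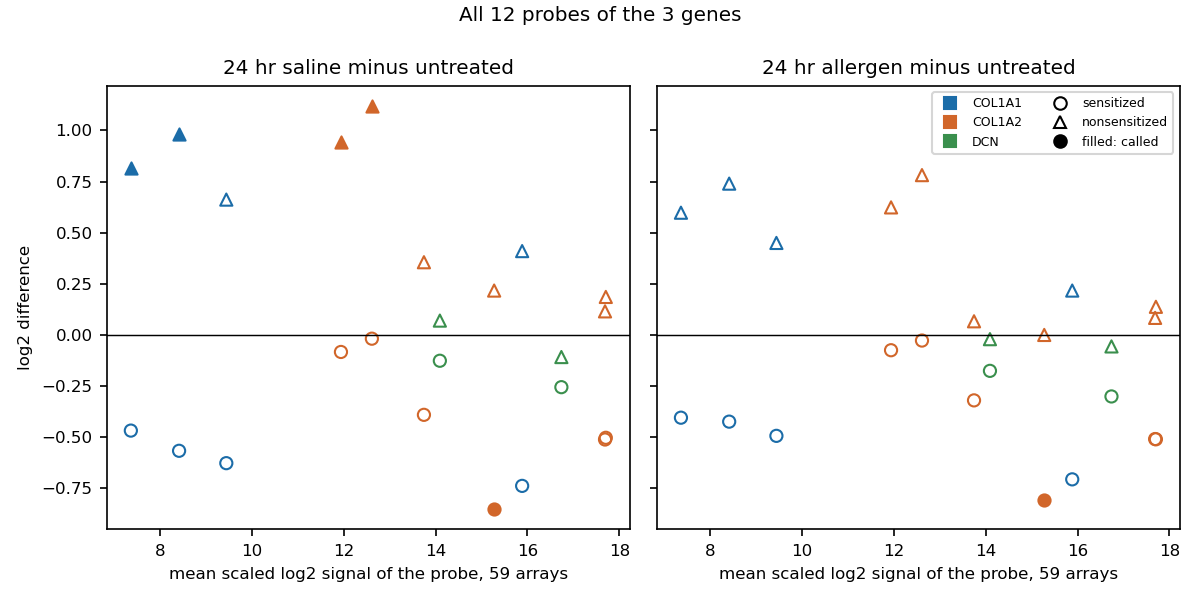
Log2 difference of 24 hr saline (left) and 24 hr allergen (right) sites from untreated skin, for all 12 probes, against the mean scaled log2 signal of the probe, in sensitized and nonsensitized dogs. In every COL1A1 and COL1A2 probe the nonsensitized value lies above the sensitized value, but the values of the dim COL1A2 probes sit higher than those of the bright ones in both dog groups; filled symbols were called.

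The change from untreated skin was therefore compared between the dog groups, a comparison added after the data had been seen. For COL1A1 the 24 hr change of sensitized dogs minus that of nonsensitized dogs was -1.15 under saline (SE 0.48, 95% interval -2.11 to -0.19) and -0.92 under allergen (SE 0.49, -1.91 to 0.06). For COL1A2 it was -0.69 (SE 0.32) and -0.65 (SE 0.33), and for DCN -0.15 and -0.24. Over the 10 collagen probes it was below 0 throughout, from -1.55 to -0.63 under saline and from -1.16 to -0.39 under allergen. The probes thus differed in where each dog group lay and not in the sign of the difference between them.

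Unpaired, limma called none of these. Under saline the adjusted p was 0.358 for COL1A1 and 0.400 for COL1A2, and 0 of 45972 probes were called, with 5366 at an unadjusted p below 0.05. Under allergen the adjusted p was 0.259 and 0.243, with none of the 12 called against 1.78% of all probes. With the dog as a block the allergen difference passed the test for COL1A1 (-0.95, SE 0.31, adjusted p = 0.0331) and COL1A2 (-0.67, adjusted p = 0.0315), with 7 of 12 probes called lower, against 3.22% of all probes called lower and 6.14% called in either direction. The saline difference did not, at adjusted p of 0.0792 and 0.0929, where 0.0087% of all probes were called.

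These differences of changes rest on untreated skin. Each equals the difference between the dog groups at 24 hr minus that at 0 hr. For COL1A1 under saline these were -0.21 and 0.94, and under allergen 0.01 and 0.94, so the untreated biopsies contributed the larger share. With 1 dog left out at a time the -0.21 ran from -0.53 to -0.014 and the 0.94 from 0.73 to 1.09. The saline and allergen values use the same untreated biopsies and are not independent of each other. With slide as a fixed block the COL1A1 values were -1.44 (adjusted p = 0.748) and -1.42 (adjusted p = 0.226).

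Other genes of the collagen matrix were sparse among the named probes. Of 11 other fibrillar and dermal collagens 2 were measured. COL6A3 rose at 24 hr saline sites of nonsensitized dogs by 0.67 (adjusted p = 0.00229), and COL2A1 fell at those of sensitized dogs by 0.72 (adjusted p = 0.0453). COL2A1 also differed by -0.67 at allergen sites of sensitized dogs (adjusted p = 0.0651), which was not called. Neither collagen was called in the other 24 hr comparisons.

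SERPINH1, the 1 collagen chaperone or crosslinking gene of 13 that was measured, rose in nonsensitized dogs by 0.59 under saline (adjusted p = 0.00229) and 0.67 under allergen (adjusted p = 0.000793). In sensitized dogs it differed by -0.08 and 0.19, not called. BGN, the 1 small leucine-rich proteoglycan of 7 besides decorin, was not called in any 24 hr comparison, with differences of -0.17 and -0.20 in sensitized and 0.13 and 0.12 in nonsensitized dogs. Of the matrix glycoproteins TNC, encoding tenascin-C, differed by -0.53 at allergen sites of nonsensitized dogs (adjusted p = 0.0385), under 1.5-fold, and THBS2, encoding thrombospondin 2, was not called.

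Several genes of collagen breakdown and its control rose at 24 hr. Of 6 measured, 3 rose under saline in each dog group, and 2 rose under allergen in sensitized and 3 in nonsensitized dogs, where 4.22% (sensitized) and 9.49% (nonsensitized) of all probes rose under saline and 7.4% and 5.36% under allergen. The list's medians were 0.52 and 0.89 under saline and 0.40 and 0.44 under allergen, where the medians over all probes were 0.0011, 0.017, -0.029 and 0.034. None of the 6 fell in these comparisons. The list was chosen with earlier results of these data known.

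The gene with the largest called difference was an inhibitor. TIMP1, which inhibits matrix metalloproteinases, rose in sensitized dogs by 1.86 under saline (adjusted p = 0.000108) and 2.51 under allergen (adjusted p = 1.01e-06). In nonsensitized dogs it rose by 2.42 under saline (adjusted p = 2.46e-07) and 1.03 under allergen (adjusted p = 0.0162). It was the 1 gene of this list called in the interaction, at 2.05 (adjusted p = 0.0331), and at allergen sites it was 1.68 higher in sensitized than in nonsensitized dogs (adjusted p = 0.00117). Its untreated levels were 12.83 ± 0.25 and 12.64 ± 0.09 (n = 6 each), its 24 hr allergen levels 15.35 ± 0.28 (n = 5) and 13.67 ± 0.56 (n = 6), and at these sites the dog groups did not overlap.

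MMP9, the gelatinase of neutrophils and macrophages, rose under allergen by 1.55 in sensitized dogs (adjusted p = 0.00346) and 1.12 in nonsensitized dogs (adjusted p = 0.0222), and under saline by 1.43 in nonsensitized dogs (adjusted p = 0.00287). MMP3, encoding stromelysin-1, rose by 1.21 under saline in sensitized dogs (adjusted p = 0.0170) and was well above background on 41 of 59 arrays. PLAU, encoding urokinase, made up the rest of the calls. CTSK and TIMP2 were not called at 24 hr.

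Of 7 regulators of collagen synthesis measured, 2 rose in sensitized dogs under both patches, 3 rose and 1 fell in nonsensitized dogs under saline, and 1 rose and 1 fell in nonsensitized dogs under allergen. Of all probes 4.22% and 7.4% rose in sensitized dogs under saline and allergen, and in nonsensitized dogs 9.49% rose and 12.9% fell under saline and 5.36% rose and 11.4% fell under allergen. IL6 was not well above background on any untreated array. Against the lowest detectable level it was at least 4.35-fold higher under saline and at least 5.68-fold higher under allergen in sensitized dogs (adjusted p = 7.99e-05 and 1.16e-05). In nonsensitized dogs it was at least 5.38-fold higher under saline (adjusted p = 1.44e-06).

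IL13, a cytokine of type 2 helper T cells that drives fibroblasts to make collagen, was likewise below background in untreated skin. It was at least 1.61-fold higher under saline and 3.81-fold under allergen in sensitized dogs (adjusted p = 0.0164 and 6.95e-06), and at least 2.08-fold and 1.46-fold higher in nonsensitized dogs (adjusted p = 0.000176 and 0.00830). PDGFB, a growth factor for fibroblasts, was called higher by 1.00 in nonsensitized dogs under saline (adjusted p = 0.00994). It was well above background in only 1 of these 6 dogs untreated and 3 of 6 under saline, where it ran from 4.86 to 9.24, so the size of the difference rests largely on values near or below background. The list's medians lay between -0.01 and 0.34.

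**Figure D5:**
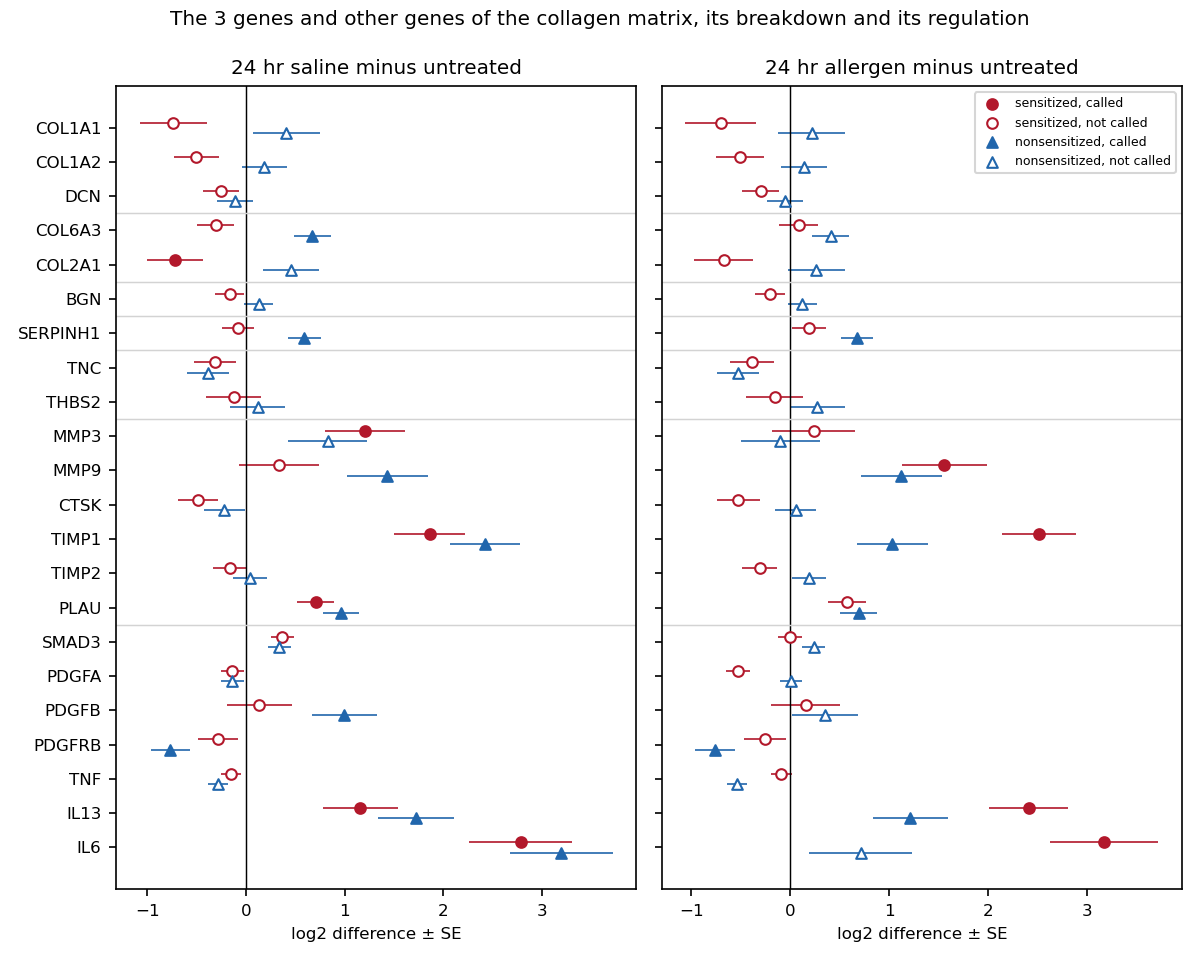
Log2 difference from untreated skin (points, with SE) at 24 hr saline (left) and 24 hr allergen (right) sites, in sensitized and nonsensitized dogs, for COL1A1, COL1A2 and DCN and the other measured genes of the collagen matrix, its breakdown and its regulation. The 3 dermal genes stay within 1 unit of 0, while TIMP1 and IL6 reach 1.86 or more at saline sites of both dog groups; for IL6 and IL13 the fitted differences depend on untreated values below background.

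Markers of other cell types moved with these groups as follows. The suprabasal keratinocyte score of the 5 genes KRT1, DSG1, TGM1, SPINK5 and OCLN ran from -0.43 to -0.33 at 24 hr allergen sites of sensitized dogs and from -0.14 to 0.37 at those of nonsensitized dogs. Untreated skin had scores from -0.29 to 0.41 and from -0.01 to 0.22. At 24 hr saline sites, where 4 collagen probes were called higher in nonsensitized dogs, the score ran from -0.34 to 0.01 in these dogs and from -0.42 to 0.02 in sensitized dogs. None of the 5 genes was called there, with differences from untreated skin of -0.53 to -0.09 in nonsensitized and -0.28 to 0.08 in sensitized dogs. OCLN, a tight junction gene, fell by 0.64 from untreated skin at allergen sites of sensitized dogs (adjusted p = 7.13e-07), SPINK5, a protease inhibitor, was lower by -0.63 at their allergen sites than at those of nonsensitized dogs (adjusted p = 0.00317), and TGM1, a crosslinking enzyme of the cornified layer, was called in the interaction at -0.60 (adjusted p = 0.0316). The score of the 3 dermal genes at these allergen sites ran from -0.46 to 0.01 in sensitized and from -0.47 to 0.20 in nonsensitized dogs, so both dog groups overlapped there. None of the 9 basal keratinocyte markers was among the named genes past the filter.

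Of the fibroblast markers PDGFRB, a receptor of fibroblasts and pericytes, fell in nonsensitized dogs by 0.77 under saline (adjusted p = 0.00123) and 0.76 under allergen (adjusted p = 0.00172), and S100A4 and CD34 were not called at 24 hr. The 3 fibroblast markers had medians of -0.29 and -0.25 in sensitized dogs under saline and allergen and of -0.19 and -0.13 in nonsensitized dogs. Of the endothelial markers VWF fell in both dog groups under both patches, by 0.64 to 0.86, and KDR rose by 0.77 under saline in nonsensitized and by 0.60 under allergen in sensitized dogs. Their part in the collagen values was not tested.

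Among the remaining markers, the macrophage gene CD163 rose at all 24 hr sites, by 0.96 to 1.86, and CD4 fell in nonsensitized dogs by 0.90 under either patch. The other 2 leukocyte genes measured were not called: KIT, a mast cell gene, differed by -0.54 to -0.40 at all 24 hr sites, and CD8A by -0.46 and -0.45 in nonsensitized and -0.13 and 0.04 in sensitized dogs under saline and allergen. LEP, an adipocyte gene, fell in nonsensitized dogs by 0.75 and 0.70, while ADIPOQ and PPARG were not called in either dog group, with differences of -0.46 and -0.27 under saline and -0.16 and 0.15 under allergen in nonsensitized dogs. The mean score of these 3 genes in sensitized dogs was 0.16 untreated, -0.11 under saline and -0.25 under allergen at 24 hr. In nonsensitized dogs it was 0.30, -0.19 and 0.06. SOX9 of the hair follicle fell in nonsensitized dogs by 0.97 and 1.01, and KRT71 rose under saline by 1.18. The muscle gene MYH7 was lower in sensitized than nonsensitized dogs at saline and allergen sites by -1.78 and -1.58. The other skeletal muscle gene measured, MYH1, differed by -0.12 and 0.52, not called, and the smooth muscle gene DES was not called. The centred level of DES varied widely at 24 hr saline sites, with means of 0.43 in sensitized and 1.09 in nonsensitized dogs and highest values of 3.40 and 4.51. Its means were -0.48 and 0.06 in untreated skin and -0.46 and -0.27 at 24 hr allergen sites. The part of muscle in the collagen values was not tested. The reference gene HPRT1 rose by 0.62 to 0.79 at 24 hr sites other than the saline sites of sensitized dogs, where it differed by 0.44 (adjusted p = 8.26e-05), under 1.5-fold. The other 2 reference genes measured were not called, with differences of 0.11 to 0.47 for ACTB and -0.09 to 0.36 for GAPDH.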

How the data were processed

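RNA of 60 skin biopsies was hybridised singly (Cy3) to custom Agilent dog arrays and read with Feature Extraction 10.7.3.1. The deposited scanner files hold the intensity of each spot with the background subtracted by that software in the authors' hands, not scaled between arrays. The deposited value table held the same values and was not used further. Columns of the authors' own comparisons were not present in the files used.

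From these intensities, flagged outlier values (6048) were set to missing. Probes that no group had well above background on 5 or more arrays were dropped, which left 45972 of 60068 probes. Following the study's methods, arrays were scaled by variance stabilisation (vsn), here rewritten in Python 3.11.15 with numpy 2.4.6, pandas 2.3.3 and scipy 1.17.1 and fitted on 20000 seeded spots, and specimen 14 was left out for its degraded RNA. Spots of a probe were averaged. The 10 group means were fitted in 1 unpaired model with limma 3.58.1 (statmod 1.5.0, R 4.3.3; 49 residual and 3.52 prior degrees of freedom). P-values were adjusted by the Benjamini-Hochberg procedure, two-sided, over all probes tested. Of 19 comparisons 2 were added after the data had been seen. Scripts were tested on simulated data. The number of arrays limits the precision. Figures were drawn with matplotlib 3.10.9.

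Probes were named through RefSeq, where 1080 of 54633 identifiers matched, so most probes stayed unnamed. Each gene is represented by its brightest probe. Up to 3 genes of a list are named, those with the largest called difference at 24 hr, or the largest difference where none was called; the 5 genes most like and 3 least like the members by Pearson's r are named too. Other genes given by name (KRT1, CTSK, PLAU, TIMP2, S100A4, CD34, MYH1, CD8A, KIT, PPARG and DSG1 among them) were chosen after their values were seen. A gene of the breakdown list is not reported here and was left out of its counts. The members and lists were chosen with earlier results of these data known. For a gene below background on every array of a group, the fold is a lower bound against, per array, the higher of its own signal and the lowest signal well above background.

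Biopsies of 1 dog share its number, so the dog pairs the samples. Deviations from group means correlated with a median of 0.387 between arrays of the same dog (110 of 116 pairs above 0.1) and -0.081 between different dogs. The dog as a block, other scalings, filters, slide blocks, all 60 arrays, separate fits by time and leaving out each dog were tried as alternatives.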

Additional observations from a re-analysis of the deposited data

Results flagged for a closer look

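In the comparison added after the data had been seen, the 24 hr change at the allergen site from untreated skin differed between dog groups when the dog was a block. COL1A1 differed by -0.95 (adjusted p = 0.0331 in limma) and COL1A2 by -0.67 (adjusted p = 0.0315). By dog, the brightest probes of both genes were lower in all 5 sensitized dogs measured, whereas they were higher in 4 of the 6 nonsensitized dogs. The dimmer COL1A2 probes A_11_P147118 and A_11_P147268 were higher in 4 and 3 of the 5 sensitized dogs.

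The brightest COL1A2 probe at the 24 hr saline site was lower than in untreated skin in 6 of 6 sensitized dogs, from -1.01 to -0.16, and higher in 6 of 6 nonsensitized dogs, from 0.08 to 0.38. The same 2 dimmer probes were higher in 4 of 6 sensitized dogs and A_11_P145878 in 1. The difference of -0.69 between the dog groups was not called (adjusted p = 0.400 unpaired and 0.0929 with the dog as a block). Untreated skin enters all these values, and it was on other slides than most 24 hr skin. For the saline sites it was on another slide in every dog, so the signs of the dogs are not independent of each other. The COL1A2 pattern was flagged for these signs, and the share of all probes that show such a pattern was not counted. At these saline sites 9.35% of all probes in sensitized and 22.4% in nonsensitized dogs were called against untreated skin without pairing.

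No biopsy stood apart from its group by Dixon's criterion, in 30 combinations of gene and group examined.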

How the results depend on the processing

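The 27 results that compare dogs or sites at the same time were not called under any of their 585 alternative values, with a lowest adjusted p of 0.163. Of the 630 alternative values of the 30 results that involve untreated skin, 7 were called. With the dog as a replicate block 5 became called: COL1A1 at nonsensitized 6 hr saline sites against untreated skin (0.59), COL1A1 at sensitized 24 hr saline (-0.74) and allergen sites (-0.73), and the difference between dog groups under allergen for COL1A1 (-0.95) and COL1A2 (-0.67). The block changed no other call of the brightest probes. Among all 12 probes it moved the count called at nonsensitized 24 hr sites from 4 to 5 under saline and from 0 to 4 under allergen, and at sensitized 24 hr sites from 1 to 3 and from 1 to 2. The other 2 came from leaving out nonsensitized dog 2716 or 2802, with COL1A1 at sensitized 24 hr saline sites between -0.85 and -0.52 over all dogs left out.

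Several values changed sign. Among them was DCN against untreated skin with slide as a fixed block, where sensitized 24 hr saline sites went from -0.26 to 0.15 and nonsensitized 24 hr sites from -0.11 to 0.45 and from -0.06 to 0.54. For COL1A1, 24 hr allergen sites of sensitized minus nonsensitized dogs gave -0.018 with 75th percentile scaling, -0.014 without a filter, -0.47 and -0.28 with slide as a fixed and a random block and -0.043 as a mean over probes. Sensitized allergen minus saline at 24 hr gave -0.088 and -0.048 with the slide blocks, and sensitized 6 hr saline minus untreated gave 0.22 with the fixed block. For COL1A2, sensitized allergen minus saline at 24 hr gave 0.050 with all 60 arrays and 0.018 as a mean over probes, the 24 hr interaction -0.083 and -0.020 with the slide blocks, and 24 hr allergen sites 0.016 as a mean over probes. Its 6 hr saline minus untreated in sensitized dogs gave 0.026 with the fixed block, and 6 hr allergen minus untreated in nonsensitized dogs gave -0.023, -0.0014 and -0.021 with the fixed block, the random block and the mean.

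For DCN, the 6 hr interaction gave 0.076 with normexp, 0.12 and 0.050 with the slide blocks and 0.029 as a mean. At 24 hr, with all 60 arrays, sensitized allergen minus saline gave 0.089 and the interaction 0.036, and nonsensitized allergen minus saline gave -0.019 as a mean. Against untreated skin, nonsensitized 24 hr saline sites also gave 0.12 (normexp), 0.024 (no filter) and 0.012 (random block), and allergen sites 0.16, 0.051 and 0.087. Sensitized 6 hr allergen sites gave 0.18 and 0.017 with the slide blocks. The causes were not tested. A stricter filter and separate fits by time changed no sign or call.

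In some results leaving out 1 dog moved the size of COL1A1 without a change of sign. Its range was 0.040 to 0.44 for the 24 hr interaction and -0.53 to -0.014 for 24 hr saline sites. For nonsensitized allergen minus saline at 24 hr the range was -0.41 to -0.0076. Leaving out each dog moved the sign of these. COL1A1 ranged from -0.096 to 0.10 for sensitized allergen minus saline at 24 hr, from -0.088 to 0.13 for 24 hr allergen sites, from -0.017 to 0.23 for nonsensitized 6 hr allergen minus untreated and from -0.26 to 0.040 for sensitized 6 hr saline minus untreated. COL1A2 ranged from -0.15 to 0.071 and -0.091 to 0.029 for 24 hr allergen minus saline in nonsensitized and sensitized dogs, from -0.078 to 0.15 for the 24 hr interaction, from -0.027 to 0.11 for nonsensitized 6 hr allergen and from -0.17 to 0.016 for sensitized 6 hr saline minus untreated. DCN ranged from -0.061 to 0.21 at 0 hr, -0.028 to 0.089 and -0.16 to 0.0018 for 24 hr allergen minus saline in nonsensitized and sensitized dogs, -0.14 to 0.024 for nonsensitized 24 hr allergen and -0.031 to 0.11 for 6 hr saline minus untreated, -0.20 to 0.024 for 24 hr saline sites and -0.11 to 0.088 for the 6 hr interaction.

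The 75th percentile scaling moved the median of all probes for sensitized 24 hr allergen minus untreated from -0.029 to -0.12. The specimen left out had COL1A1 at 16.08, COL1A2 at 17.87 and DCN at 17.35 when all 60 arrays were scaled together.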
